A study of Mus musculus with 6 samples.

Results

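Ribosome biogenesis genes encode the machinery that transcribes ribosomal RNA in the nucleolus, modifies and cuts it, and joins it to ribosomal proteins. The 40 genes described here were fixed by name, from RNA polymerase I subunits to late assembly factors, and all 40 had a probe set among the 18193 genes measured. Each gene was read at its brightest probe set over all 6 arrays. The arrays hold RNA from Pax5-/- mouse pro-B cells, which lack the transcription factor that commits progenitors to the B lineage. In 3 arrays the cells had received the EBF retrovirus (Mig-EBF) and in the other 3 the control retrovirus (MigR1); EBF is a transcription factor that specifies early B cells. All cells were kept with IL-7 at 5 ng/ml over a layer of ST2 cells, which are stromal cells derived from bone marrow, and GFP-positive cells were sorted 2 days after infection. Both groups therefore lack Pax5. The labels number the replicates and do not tie them to different cultures or animals. The p-values thus reflect how far these 6 samples scatter, and that scatter may be technical. Whether the pro-B cells were a single line is not given in the sources used here.

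In growing cells RNA polymerase I makes 1 long precursor RNA. Small nucleolar ribonucleoproteins (snoRNPs) of the box C/D class guide its methylation, and those of the box H/ACA class guide pseudouridine formation. A large assembly called the processome folds and cuts the small subunit part, while a separate set of factors builds the large subunit. The pathway is known to follow cell growth, and many of its genes are known targets of Myc, a transcription factor that drives growth and binds the E-box sequence CACGTG.

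Median intensities of the arrays lay between 424 and 451. The 27 probe sets for Bacillus transcripts, which give a background level, had array medians of 97.6 to 108 and reached 410 at most. All 40 genes were brighter than that maximum on every array, with intensities from 474 to 17490. Their median brightness was at percentile 87.1 of all genes. The pro-B markers fixed for this work were all measured and bright, with Vpreb1 at 18067 to 19979 and Igll1, which encodes a surrogate light chain, at 7789 to 14518. An earlier analysis of these data set EBF 3 and control 2 apart from their groups. Over all genes the limma fit called 198, and 1813 without EBF 3, so the results are also given without these arrays.

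The 34 genes with a promoter in the RefSeq table (build GRCm38.p6, 250 bases before to 50 after the start) were searched for CACGTG on both strands. It was found in 6 of the 34 genes (17.6%), against 8.09% of all genes in the table and 10.2% of those measured here. The share was not particular to this part. It was 20.4% for the other ribosome biogenesis genes described below, 18.75% for DNA replication, 26.7% for RNA polymerase III and 10.3% for cytosolic ribosomal protein genes. The 6 were Imp4, Mybbp1a, Pes1, Utp18, Utp20 and Wdr43. Their median log2 difference between EBF and control arrays was 0.17, and that of the 28 genes without the E-box was 0.16. A link between the E-box and the difference was not tested. The 2 places upstream of the start are shown because they carry this E-box, which is in capitals. Imp4, which encodes a protein of the U3 snoRNP, had it 121 bases before the start (chr1:34439678-34439743, plus strand), and Utp18, a processome gene, had it 20 bases before (chr11:93885767-93885816, minus strand).
Imp4: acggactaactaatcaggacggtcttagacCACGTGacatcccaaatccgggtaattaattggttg
Utp18: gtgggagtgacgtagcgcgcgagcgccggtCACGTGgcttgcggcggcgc

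The promoters were rich in CG pairs, with a median of 20 in 300 bases, against 16 for the measured genes and 7 for all promoters. Related lists had as many or more. The median was 21 for the other ribosome biogenesis genes and for DNA replication, 22.5 for RNA polymerase III and 23 for ribosomal protein genes. Shown next are the 100 bases before the start of the genes that passed the threshold in the blocked fit, in which arrays of the same replicate number are paired, and had a promoter entry, with CG in capitals. They lie at chr19:46075747-46075846 (plus) for Nolc1, chr10:62602299-62602398 (minus) for Ddx21, chr10:88826815-88826914 (minus) for Utp20, chr17:47611493-47611592 (minus) for Bysl and chr4:118620699-118620798 (plus) for Ebna1bp2.
Nolc1: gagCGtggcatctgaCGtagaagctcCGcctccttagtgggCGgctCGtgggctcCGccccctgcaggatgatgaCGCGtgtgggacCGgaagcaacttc
Ddx21: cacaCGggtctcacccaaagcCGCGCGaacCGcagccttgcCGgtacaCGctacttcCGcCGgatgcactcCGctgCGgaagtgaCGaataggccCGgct
Utp20: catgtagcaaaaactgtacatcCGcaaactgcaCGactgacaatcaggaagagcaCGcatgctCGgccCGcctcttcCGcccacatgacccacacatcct
Bysl: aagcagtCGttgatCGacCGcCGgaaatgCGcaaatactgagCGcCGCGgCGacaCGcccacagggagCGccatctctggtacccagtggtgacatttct
Ebna1bp2: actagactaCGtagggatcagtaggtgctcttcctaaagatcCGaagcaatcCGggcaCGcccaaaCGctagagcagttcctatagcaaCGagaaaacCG

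Across the 40 genes the EBF arrays read slightly higher than the controls, and 38 of 40 log2 differences (EBF minus control, on the log2(intensity + 32) scale) were above 0, where 58.0% of all genes were. The median difference was 0.16, against 0.03 over all genes, and single genes ranged from -0.07 for Polr1a to 0.40 for Utp20. In the limma fit of all 6 arrays 0 of the 40 passed an adjusted p of 0.05, and 1.09% of all genes did (0.418% higher, 0.671% lower). Before adjustment, 17 had a p below 0.05 with EBF higher and 0 with EBF lower, against 13.5% and 6.23% of all genes. The blocked limma fit called 6 of the 40, all higher, where it called 7.31% of all genes (4.80% higher, 2.51% lower). Its pairing was read from these same arrays and is not given by the labels. Over the 40 genes alone, an EBF array's departure from its group mean correlated with that of the control of equal number weakly for number 1 (0.054) and more for numbers 2 and 3 (0.186 and 0.350). The groups did not overlap for 25 genes, each with the EBF arrays higher (62.5%, against 17.2% of all genes; 0 had EBF lower, against 8.06%).

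The array that was left out decided how many passed. Without EBF 3, 12 of the 40 were called higher and 0 lower, against 7.08% and 2.89% of all genes, and without any other single array 0 were. Without EBF 3 and control 2 together 3 were called (Tcof1, Nolc1 and Bysl), against 3.17% of all genes called higher and 1.31% called lower.

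**Figure D1:**
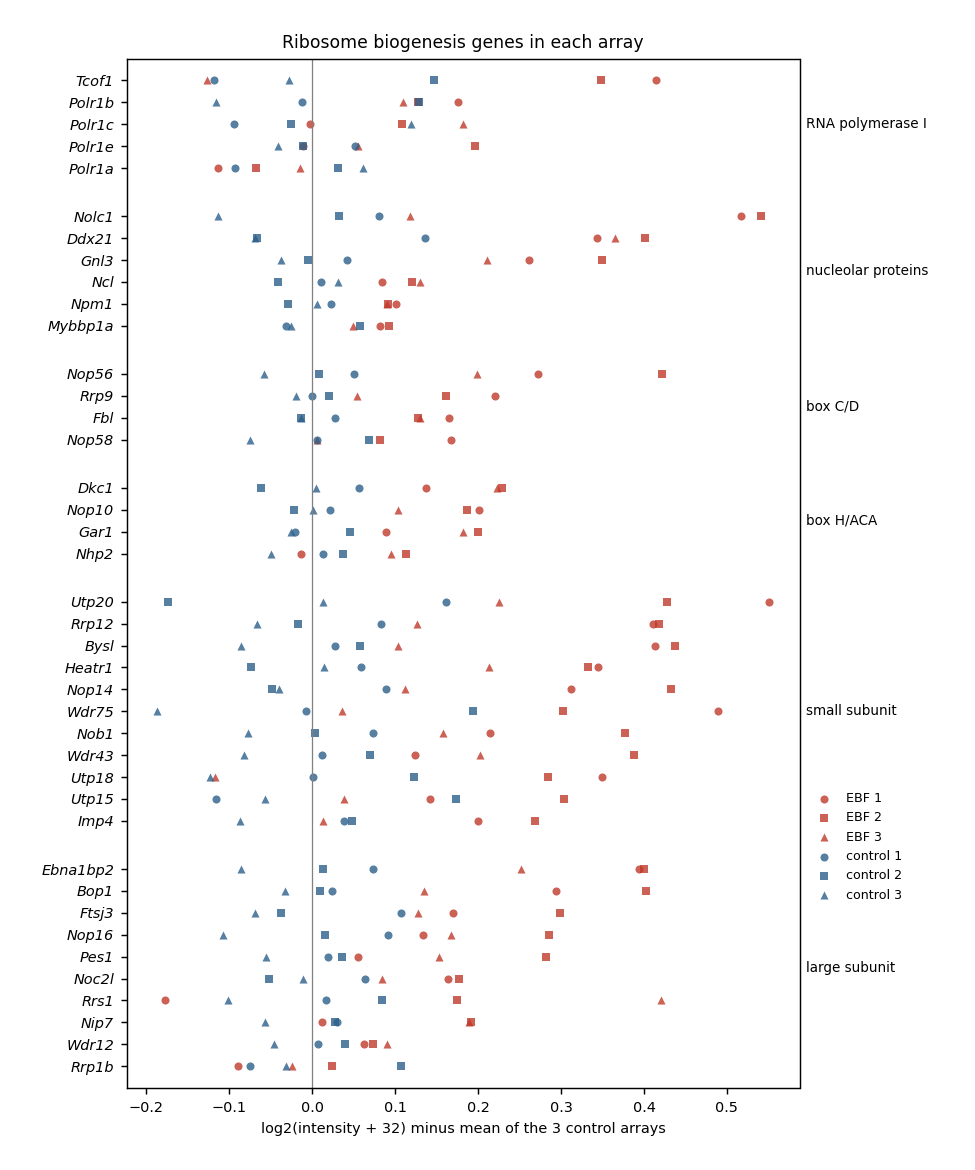
Level of each of the 40 genes in each array, as log2(intensity + 32) minus the mean of the 3 control arrays; red marks are EBF arrays, blue marks control arrays, and the mark's shape gives the replicate number. For 25 genes every red mark lies to the right of every blue mark, and the red triangle (EBF 3) is the lowest of the EBF arrays in 24 of the 40.

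By array, the median of the 40 genes relative to the control mean was 0.17, 0.28 and 0.12 in EBF 1 to 3 and 0.02, 0.02 and -0.05 in control 1 to 3. The groups did not overlap, and EBF 2 was the highest and control 3 the lowest. Over all genes the medians were 0.024, 0.024 and 0.037 in EBF 1 to 3 and -0.005, 0.030 and -0.018 in control 1 to 3. Control 3 was thus the lowest there too, and the groups overlapped. EBF 2 was the highest of all 6 arrays for 23 of the 40 genes and control 3 the lowest for 24. Comparing arrays of the same number, 32 genes were higher with EBF in all 3 pairs, 6 in 2 pairs and 2 in fewer. The 3'/5' ratio of the Gapdh control probe sets, a sign of RNA quality, was 1.028, 1.039 and 1.013 in EBF 1 to 3 and between 1.006 and 1.012 in the controls. It was above every control in each EBF array and in the order of the 40 genes' medians among them, and its part was not tested. The actin ratio overlapped (1.14 to 1.25 with EBF, 1.13 to 1.18 without). EBF 3 read below the brightest control for 10 genes, EBF 1 for 8 and EBF 2 for 4.

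The stromal markers moved with this order in part. The summed intensity of the 8 ST2 marker genes was 15040, 10269 and 12806 in EBF 1 to 3 and 11105, 15258 and 18748 in control 1 to 3, so the groups overlapped. It was lowest in EBF 2, where the 40 genes were highest, and highest in control 3, where they were lowest, whereas control 1 had almost as low a sum as EBF 2 and a median of 0.02. Col1a2 (2632 to 6020), a collagen gene, was well above background in all arrays and none of the 8 was at 0. Lum (155 to 205) and Pdgfrb (178 to 344) were dim. They lay above the Bacillus medians but below the Bacillus maximum of 410 on every array. The 8 did not move as one. Log2 differences were -0.44 for Col1a2, -0.32 for Col1a1, -0.27 for Col3a1, -0.30 for Pdgfrb and -0.52 for Cxcl12. Sparc had 0.12, Lum 0.20 and Vcam1 0.15, and Vcam1 was higher in every EBF array (619 to 654) than in the controls (534 to 590). The 9 pro-B markers summed to between 63312 and 64563 with EBF and between 52559 and 54195 in the controls. Of that list only Dntt and Cd79a were below 0. Vpreb3 rose by 0.67 (limma adjusted p = 0.0093) and Dntt, the terminal transferase gene, fell by 0.70 (0.0226). Cd79a had -0.27 (0.253). Igll1 had 0.57, Il7r 0.42, Cd79b 0.40, Rag1 0.30 and Vpreb1 0.08, none of which passed without the block. Ebf1 itself had 0.12 at its brightest probe set, with overlapping groups (limma adjusted p = 0.469). Of 4 late B markers 2 were measured: Ms4a1 rose by 1.11 (limma adjusted p = 0.0012) and Cd22 had -0.12 (0.386). Sums for 6 myeloid, 4 T cell and 3 NK markers overlapped between the groups, and those of the 2 erythroid markers did not (544 to 716 with EBF, 481 to 506 without). Within the myeloid list Lyz2, a lysozyme gene, fell from between 795 and 820 to between 560 and 579 (log2 -0.48; limma adjusted p = 0.0169). The erythroid gap came from Alas2 (log2 0.48; adjusted p = 0.145, blocked 0.0143), as Hba-a1 had -0.06 with overlap. Their part in the differences was not tested. In bulk samples fewer cells of a type and less RNA per cell cannot be told apart.

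**Figure D2:**
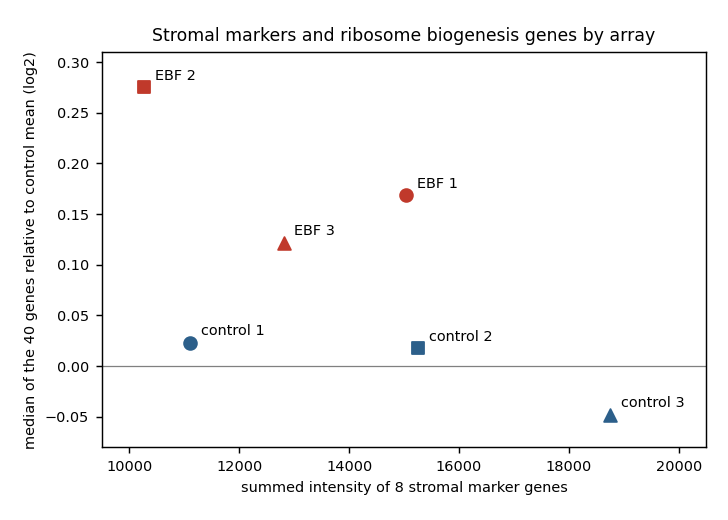
Median of the 40 genes relative to the control mean (log2, vertical axis) against the summed intensity of 8 stromal marker genes (horizontal axis, which does not start at 0), with 1 point per array. EBF 2 combines the lowest sum (10269) with the highest median, control 3 the highest sum (18748) with the lowest, and control 1 has a low sum and a median of 0.02.

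Genes that transcribe ribosomal RNA had small differences at their brightest probe sets. The 5 genes of the RNA polymerase I group had a median of 0.10, and 0 passed in the fit with or without the block (0 at an unadjusted p below 0.05). Polr1a, the largest catalytic subunit, read 1796, 1856 and 1926 in the EBF arrays and 1822, 1990 and 2032 in the controls. The ranges overlapped, and the log2 difference was -0.07 (95% confidence interval -0.24 to 0.11). A slightly dimmer Polr1a probe set read 1680, 1809 and 1795 against 1654, 1563 and 1605. It had 0.13 with no overlap (limma adjusted p = 0.35, blocked 0.335). The remaining Polr1a probe sets had 0.19, 0.03 and -0.07, so the sign differed between probe sets. Polr1b, the other catalytic subunit, had 0.14, Polr1c, which RNA polymerase III also contains, 0.10, and Polr1e 0.08. Another Polr1c probe set had 0.28, with no overlap (adjusted p = 0.173, blocked 0.0890).

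Tcof1, which encodes treacle, a nucleolar protein that supports polymerase I, depended on the array. It read 5902, 5637 and 4046 in EBF 1 to 3 and 4069, 4899 and 4334 in control 1 to 3, so EBF 3 was below every control. The log2 difference was 0.21 ± 0.14 (SE; limma adjusted p = 0.452, blocked 0.269), and without EBF 3 it was 0.38 (adjusted p = 0.0461). Its 3 probe sets had differences of 0.21, 0.25 and 0.40. At the last, the EBF arrays read 2298, 2261 and 2070 and the controls 1826, 1530 and 1657, with no overlap (adjusted p = 0.0896, blocked 0.0225).

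Nucleolar proteins with broad roles were all higher in value. The group of 6 had a median of 0.19; 3 were higher at an unadjusted p below 0.05, and 2 passed with the block, Nolc1 and Ddx21. Nolc1 encodes Nopp140, a chaperone of snoRNPs. It read 4248, 4319 and 3212 in the EBF arrays and 3131, 3027 and 2733 in the controls. EBF 3 lay close above control 1, and the other EBF arrays well above it. Means were 3927 ± 620 and 2963 ± 206 (SD, n = 3 each), a 1.31-fold difference (log2 0.39 ± 0.12 SE; limma adjusted p = 0.164, blocked 0.0250). Without EBF 3 its adjusted p was 0.0143. All 3 Nolc1 probe sets agreed, with differences of 0.39, 0.40 and 0.43, each called with the block.

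Ddx21, a nucleolar RNA helicase, was the gene with the smallest p of the 40. It read 3246, 3379 and 3297 with EBF and 2807, 2436 and 2431 in the controls, where control 1 was the highest. The EBF arrays lay close together and all were above the controls. The log2 difference was 0.37 ± 0.08 (SE; limma adjusted p = 0.0873, blocked 0.0301), or 1.29-fold, and its other probe set had 0.34 (blocked 0.0360). Gnl3, which encodes nucleostemin, a GTP-binding protein of the nucleolus, read 6883, 7316 and 6646 against 5907, 5716 and 5589. This gap was wider than the spread of either group, at log2 0.27 ± 0.07 (adjusted p = 0.128, blocked 0.0596; 0.0463 with an intensity trend in eBayes).

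The abundant nucleolar proteins nucleophosmin and nucleolin had small differences at their brightest probe sets. Npm1, the brightest of the 40, read 17490, 17371 and 17360 with EBF and 16568, 15978 and 16370 in the controls. The groups did not overlap, yet the log2 difference was 0.09 (95% confidence interval -0.05 to 0.24). The other Npm1 probe set had 0.03, with overlap. Mybbp1a, a nucleolar repressor of transcription, read 5562, 5606 and 5438 with EBF and 5142, 5469 and 5162 without, and its ranges overlapped (log2 0.07). Its other probe set read 3968, 3876 and 3185 against 3243, 2943 and 2806, higher in all 3 pairs (log2 0.29 ± 0.10; adjusted p = 0.199, blocked 0.0578, and 0.0334 without EBF 3). Ncl had 0.11 at its brightest probe set. A dimmer Ncl probe set read 2162, 2397 and 2063 against 1925, 1582 and 1610. Its difference was 0.37 ± 0.10 (adjusted p = 0.133, blocked 0.0442), so the probe sets of this gene disagreed in size.

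Among the snoRNP genes 0 of 8 passed in the fit with or without the block at their brightest probe sets. The 4 box C/D genes had a median of 0.14. Nop56, a core protein of these particles, stood out in size, with 7913, 8778 and 7521 in the EBF arrays and 6779, 6584 and 6288 in the controls. No array overlapped, and the log2 difference was 0.30 ± 0.08 (limma adjusted p = 0.138, blocked 0.0511, and 0.0404 without EBF 3). Its other probe set had 0.38 and passed with the block (0.0386). The partner gene Nop58 read 6246, 5886 and 5582 against 5579, 5832 and 5277, with overlap and a difference of 0.09. The methyltransferase gene Fbl (fibrillarin) had 0.14 and Rrp9, specific to the U3 particle, 0.15.

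The 4 box H/ACA genes lay close together, with a median of 0.16. Dkc1, the pseudouridine synthase dyskerin, read 6839, 7289 and 7259 with EBF and 6469, 5957 and 6235 without. The groups did not overlap (log2 0.20 ± 0.07; limma adjusted p = 0.203, blocked 0.157). Nop10 and Gar1, 2 small partner proteins, had 0.16 each, and Nhp2, at 6485, 7084 and 6990 against 6603, 6718 and 6321, had 0.06 with overlapping groups. Another Nhp2 probe set read 5332, 5647 and 4881 with EBF and 4668, 4139 and 3918 without. That probe set passed with the block (log2 0.32 ± 0.09; adjusted p = 0.15, blocked 0.0462).

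Small subunit factors had the largest median difference of the 6 groups, 0.28 for 11 genes, and all 11 were above 0 at their brightest probe sets. At an unadjusted p below 0.05, 7 were higher and 0 lower. Utp20, Rrp12 and Bysl passed with the block, and without EBF 3 Nop14 and Heatr1 did too. The difference between this group and the others was not tested. The group leaned on EBF 1 and 2: its median relative to the control mean was 0.34 and 0.38 there and 0.11 in EBF 3.

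Utp20, a large processome scaffold, had the largest difference of the 40. It read 2398, 2200 and 1907 with EBF and 1824, 1438 and 1642 in the controls. EBF 3 was the lowest of the EBF arrays and close to control 1. Means were 2168 ± 247 and 1635 ± 193 (SD, n = 3 each), 1.32-fold apart (log2 0.40 ± 0.11 SE; limma adjusted p = 0.147, blocked 0.0305). Rrp12, needed for maturation and export of the small subunit, was the dimmest of the 40. It read 673, 676 and 547 against 530, 492 and 474, again with EBF 3 next to the controls (log2 0.32 ± 0.10; adjusted p = 0.161, blocked 0.0446).

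Bysl, which encodes bystin, a late small subunit factor, read 1838, 1869 and 1477 with EBF and 1399, 1430 and 1292 without. EBF 3 exceeded the highest control by less than the controls differed among themselves. The difference was 0.32 ± 0.10 (limma adjusted p = 0.172, blocked 0.0433, and 0.0211 without EBF 3), while a second probe set had -0.07. Heatr1, another processome scaffold, read 3580, 3548 and 3264 against 2932, 2672 and 2840, with a gap in every pair (log2 0.30 ± 0.08; adjusted p = 0.121, blocked 0.0522).

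The other processome genes were lower in size or more uneven. Nop14 had 0.29, Wdr75 0.28, Wdr43 0.24, Utp18 0.17 and Utp15 0.16. Imp4 was the smallest, at 2525, 2650 and 2214 against 2254, 2270 and 2064, with overlap in EBF 3 (log2 0.16 ± 0.09; limma adjusted p = 0.356). The other probe sets of Imp4 had -0.10, lower with EBF in every pair, and -0.0055, so its sign differed between probe sets. Nob1, the endonuclease that makes the final cut of the small subunit RNA, read 2819, 3159 and 2709 against 2554, 2431 and 2298. Its groups did not overlap (log2 0.25 ± 0.08; adjusted p = 0.183, blocked 0.0897). Utp18 was near the controls in EBF 3 alone, with 3814, 3644 and 2752 against 2989, 3253 and 2739.

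**Figure D3:**
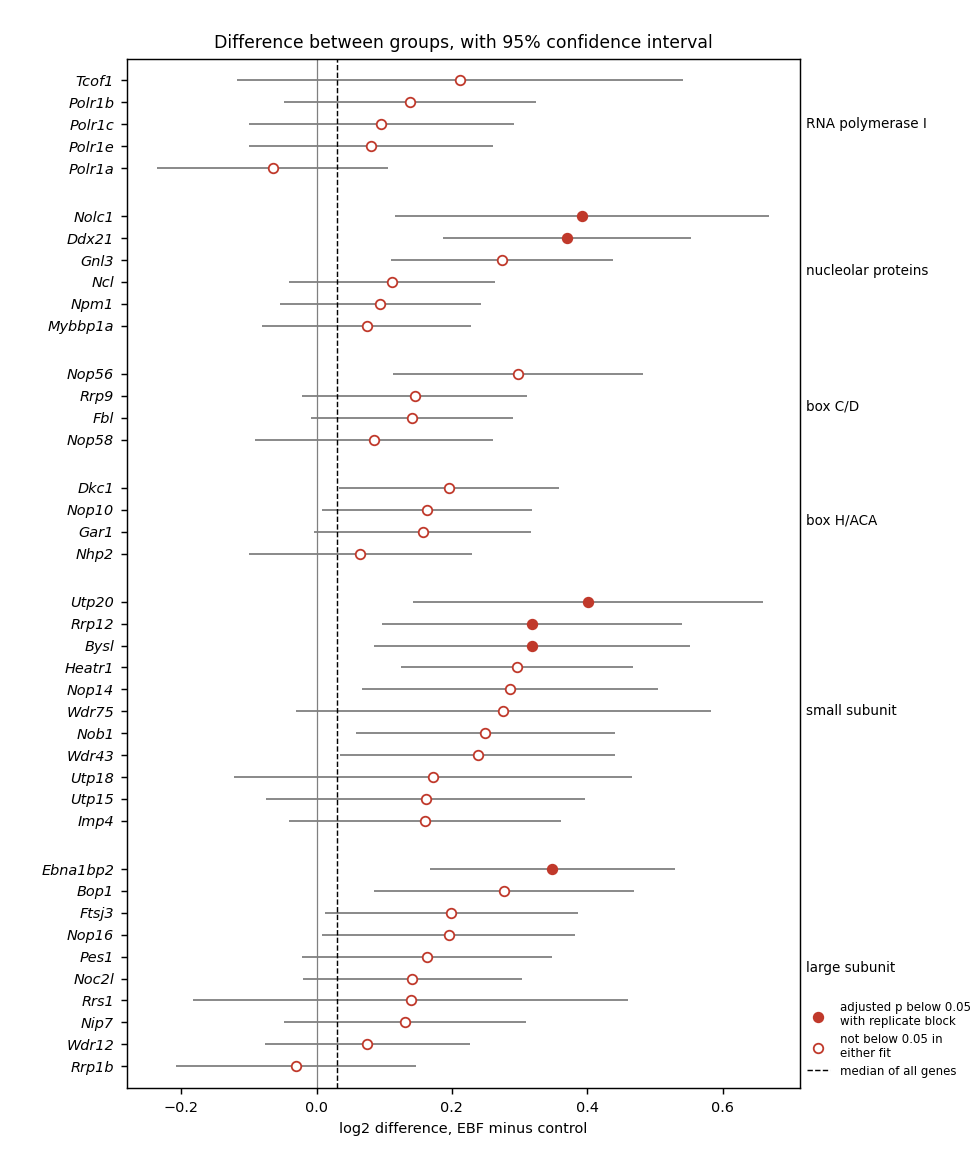
Log2 difference, EBF minus control, of the 40 genes in the fit of all 6 arrays, with bars for the 95% confidence interval; filled points passed an adjusted p of 0.05 with the replicate block, and the dashed line is the median of all genes (0.03). The 6 filled points are Nolc1, Ddx21, Utp20, Rrp12, Bysl and Ebna1bp2, and 38 of 40 points lie above 0.

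Among 10 large subunit factors 1 passed with the block, and the median was 0.15. Ebna1bp2, a nucleolar assembly factor, read 2817, 2827 and 2548 with EBF and 2249, 2154 and 2010 without. The groups stood well apart, with pair differences of 0.32, 0.39 and 0.34 for numbers 1 to 3. Means were 2731 ± 158 and 2138 ± 120 (SD, n = 3 each), 1.27-fold apart (log2 0.35 ± 0.08 SE; limma adjusted p = 0.0959, blocked 0.0256). A second probe set had 0.25 and another -0.21 (blocked 0.214), so they disagreed in sign.

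The complex of Pes1, Bop1 and Wdr12, which acts in large subunit RNA cutting, was uneven. Bop1 read 2441, 2634 and 2184 against 2018, 1998 and 1941, without overlap (log2 0.28 ± 0.08; limma adjusted p = 0.161, blocked 0.0659, and 0.0325 without EBF 3). A dimmer Bop1 probe set had -0.07 with overlapping groups. Pes1 had 0.16 and Wdr12 0.08 at their brightest probe sets, with no overlap between groups for either. A dim Wdr12 probe set, at 48 to 60 with EBF and 22 to 40 without, passed with the block, but all of these values lay below the Bacillus medians.

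The probe sets of Rrs1 and of Rrp1b differed from each other within each gene. At its brightest probe set Rrs1, an assembly factor of the large subunit, read 3243, 4150 and 4927 with EBF and 3718, 3896 and 3422 without. EBF 3 was the highest array and EBF 1 the lowest, and the difference of 0.14 became -0.00164 without EBF 3. Its other probe set read 2846, 3219 and 2969 against 2599, 2468 and 2227, with no overlap (log2 0.31 ± 0.09; limma adjusted p = 0.145, blocked 0.0582), and had 0.32 without EBF 3. Rrp1b, a nucleolar protein of the large subunit pathway, had -0.03 at its brightest probe set (2575, 2787 and 2695 against 2602, 2955 and 2681). A slightly dimmer one gave 2744, 2825 and 2358 against 2221, 2014 and 1892, and passed with the block (log2 0.37 ± 0.10; limma adjusted p = 0.129, blocked 0.0264). The last 4 large subunit factors had 0.20 (Ftsj3), 0.20 (Nop16), 0.14 (Noc2l) and 0.13 (Nip7) at their brightest probe sets. The other probe set had -0.08 for Nop16, -0.14 for Noc2l and 0.13 for Nip7, each with overlap.

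Of the 40 genes 30 had several probe sets, which gave 44 further readings. Of these 36 were above 0 and 8 below, with a median of 0.17. Limma called 0 of the 44 without the block and 10 with it, all higher. In 17 of the 30 genes another probe set had a larger difference than the brightest one, and in 22 all probe sets were above 0. Ncl, Nhp2, Nop56, Rrp1b, Tcof1, Wdr12 and Wdr75 were called with the block only at a dimmer probe set, so 13 of the 40 had at least 1 probe set called. Over all genes, 0.967% of such further probe sets were called without the block and 4.77% were called higher with it. A gene with any probe set called higher with the block was found in 8.15% of all genes, and in 11.1% of those with several probe sets, where 11 of the 30 were. Brightest probe sets ending in _s_at (Fbl, Gar1, Nhp2, Nop56, Wdr43) or _x_at (Rrs1) can match related transcripts. The 10 brightest genes had a median difference of 0.13 and the 10 dimmest 0.28; across the 40 genes Spearman's rho between brightness and difference was -0.29, as a description, since genes on the same arrays are not independent.

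**Figure D4:**
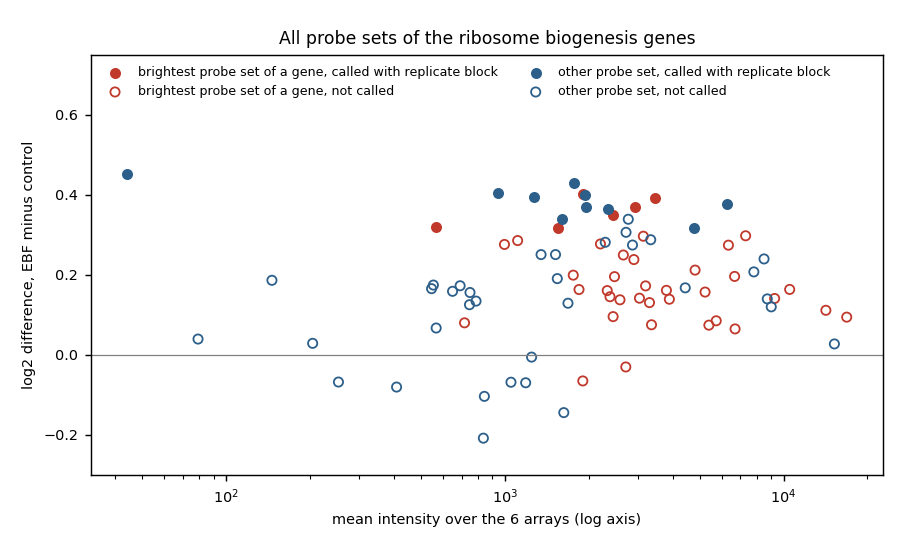
Log2 difference, EBF minus control, against mean intensity over the 6 arrays (log axis) for all 84 probe sets of the 40 genes; red marks the brightest probe set of a gene, blue the others, and filled marks were called with the replicate block. The 16 filled marks all lie above 0. The marks furthest to the right, both of Npm1 and the brightest of Ncl, have differences of 0.03 to 0.11.

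Other genes of the pathway had a similar median. Of 118 further ribosome biogenesis genes listed, 116 were measured. In the limma fit 2 rose and 0 fell, against 0.418% and 0.671% of all genes, and the median was 0.15. Ppan, a large subunit factor, rose from 2585, 2766 and 2818 in the controls to 3813, 4379 and 3578 with EBF. The groups did not overlap (log2 0.52 ± 0.09; adjusted p = 0.0454). Lyar, a nucleolar protein of cell growth, rose by 0.44 ± 0.07 (adjusted p = 0.0344). Without any 1 array other than EBF 3 both lost the call, with adjusted p up to 0.174 for Ppan and 0.171 for Lyar. With the block 7 of the 116 rose, against 4.80% of all genes, and without EBF 3 17 did, against 7.08%.

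Genes of the ribosome itself had a median near 0. Of 79 cytosolic ribosomal protein genes 44 had a probe set of their own, as many probe sets name several genes. Limma called 0 of these 44, with or without the block, and before adjustment 1 had a p below 0.05, Rpl14, with EBF higher by 0.33 (adjusted p = 0.119, blocked 0.0505). Next by p was Rpl27a, with 0.22 (adjusted p = 0.309). Their median difference was 0.01, and by array it was 0.0029, 0.021 and 0.0080 in EBF 1 to 3 relative to the control mean. These genes had a median brightness percentile of 99.8, near the top of the scale, and compression there was not tested. Of 21 RNA polymerase III genes 0 passed in the limma fit, and 4 were higher at an unadjusted p below 0.05, against 13.5% of all genes. Polr3g passed with the block (log2 0.32, limma adjusted p = 0.0831, blocked 0.0373). Polr3b, a catalytic subunit, also had 0.32 (adjusted p = 0.166).

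**Figure D5:**
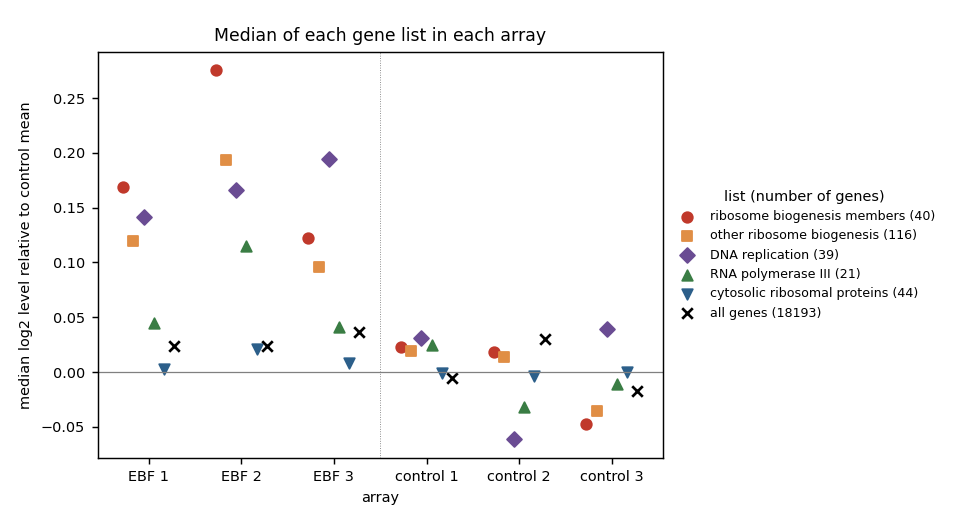
Median level of each gene list in each array, as log2(intensity + 32) relative to the control mean, with a symbol for each list. The 40 ribosome biogenesis genes lie at 0.17, 0.28 and 0.12 in the EBF arrays, the other genes of the pathway at 0.12, 0.19 and 0.10, and the ribosomal protein genes stay near 0 in all 6 arrays.

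Among 13 genes of the Myc network, Myc read 6585, 6588 and 6536 with EBF and 5053, 4270 and 4547 without. The 3 EBF arrays lay within a narrow range, EBF 3 included, and all were above the controls (log2 0.51 ± 0.08; limma adjusted p = 0.0325). The call was lost without any 1 array other than EBF 3 (0.0574 to 0.159). Mycn went the other way, at 13871, 12364 and 9982 with EBF against 17104, 17271 and 16202. No array overlapped and EBF 3 was the lowest (log2 -0.49 ± 0.12; adjusted p = 0.105, blocked 0.0148). The median of this list was -0.01.

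Genes of DNA replication, another set tied to growth, had a median of 0.16, and 2 of 39 rose, the polymerase delta genes Pold1 (log2 0.49; adjusted p = 0.0307) and Pold2 (0.48; 0.0278). Without any 1 array other than EBF 3 both lost the call (up to 0.160 and 0.148). The blocked fit called 10 of the 39 higher, against 4.80% of all genes. The arrays were ordered differently here: the list's median relative to the control mean was 0.14, 0.17 and 0.19 in EBF 1 to 3, where EBF 3 was highest, and 0.03, -0.06 and 0.04 in the controls. The ribosome biogenesis genes were lowest in EBF 3 among the EBF arrays, and this difference in order was not tested.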

How the data were processed

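The authors deposited linear intensities, 1 value per probe set and array. Which software and normalization made them is not given in the sources used here. Per the labels' protocols, biotinylated cRNA was made from 6 microg total RNA. The series' design text names a rat array, but the organism label and the platform's gene table are of mouse. After 64 control probe sets were left out, 45037 were tested as log2(intensity + 32), with no further scaling. Of these 34945 had 1 gene symbol, 932 several and 9160 no listed gene. Fits used limma 3.58.1 in R 4.3.3 (lmFit, eBayes, two-sided), adjusted by Benjamini-Hochberg over all probe sets, with a threshold of 0.05 and errors as standard errors. The method was tested on simulated data.

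To see whether replicate numbers pair the arrays, each array's departure from its group mean was compared with that of the array of the same number. The correlations were 0.316, 0.251 and 0.505 across 22518 probe sets of above-median brightness, all above the limit of 0.1, so the numbers were taken to pair the arrays. Over the 40 members alone they were 0.054, 0.186 and 0.350, with number 1 below that limit. The labels give numbers alone. Blocked p-values are given for results whose call they change and for some others.

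The members and lists were chosen with earlier results of these data known. Described in full are members called with or without the block and, in each role, those of smallest and largest difference. From other lists up to 3 called genes of smallest p in each direction are named, or where none is called the 2 of smallest p, and Myc in any case. Further members, probe sets, Mycn and marker genes given with values were chosen after these were seen. Some gene names of the pathway list were entered under older symbols. Promoters are from RefSeq, and a search for a longer motif is not reported here. The number of arrays limits the precision.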

Additional observations from a re-analysis of the deposited data

How the results depend on the processing

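The members' median kept its size under all alternatives (0.13 to 0.22; 0.14 to 0.20 without 1 array). With the replicate block the calls numbered 1330 over all genes (198 without it), 6 members (0), 7 other pathway genes (2), 1 RNA polymerase III gene (0), 3 Myc network genes (1) and 10 replication genes (2); it changed no other count. Without EBF 3 and control 2 they were 814, 3, 5, 1 and 2, in the same order up to the Myc network. Leaving out 1 array gave 44 to 1813 over all genes, 0 to 12 members, 0 to 17 other pathway genes, 0 to 2 RNA polymerase III genes, 0 to 3 Myc network genes and 0 to 8 replication genes, the highest each time without EBF 3. The mean of all probe sets gave 337 over all genes, 1 RNA polymerase III gene and 6 replication genes, and an intensity trend 308, 1 member (Gnl3) and 4 replication genes. With equal array medians 0 other pathway genes, 0 Myc network genes and 1 replication gene were called; a pseudocount of 8 gave 0 other pathway genes and a larger one 4 replication genes. The cause was not tested. Signs turned for Polr1a (0.042), Rrp1b (0.18) and Noc2l (-0.00123) with the mean of all probe sets, and for Rrp1b without EBF 3 and control 2 (0.020). Without 1 array Rrs1 ranged from -0.00164 (without EBF 3) to 0.30 and Rrp1b from -0.068 to 0.023 (without control 2). Quantile normalization and the filter at a mean intensity of 200 left the members' calls at 0.

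With 3 arrays per group and standard errors of 0.06 to 0.14 for the members, no member's difference passed after adjustment over all probe sets in the fit without the block. The lowest adjusted p of a member was 0.0873.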
